A study of Homo sapiens with 4 samples.

Results

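The TE-like cells of human blastoids were compared between cultures that had received 4 mM dimethyl α-ketoglutarate (dm-αKG) and cultures that had received none. Blastoids are models of the blastocyst grown from naive embryonic stem (nES) cells, here of the established H9 line, and trophectoderm (TE) is the outer layer of the blastocyst. A barcode counted as TE-like when its UMIs of KRT8, KRT18, GATA3 and CLDN4 together exceeded those of POU5F1, DPPA5, DPPA4, L1TD1 and TDGF1. The cells were thus chosen by these measured UMI counts of 9 genes. The rule found 457 TE-like cells among 10902 kept blastoid cells; the remaining 10445 are called Epi-like, after the epiblast. Of the 24564 barcodes in the whole series, 13017 were kept, aggregates included.

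All blastoids came from H9 nES cells that were aggregated in microwells and grown with PD0325901, A83-01, hLIF, LPA and Y27632, later with LPA and Y27632 only. The blastoids_4mM cultures had dm-αKG, a cell-permeable form of α-ketoglutarate, during the first 40 h, and the blastoids_0mM cultures did not; both were taken at 120 h. Each of 2 capture runs held 1 culture of each dose, tagged with a hashtag antibody, and such a tagged culture in a run is called an arm (n = 2 arms per dose). H9 is a single line, only structures with a single cavity were picked, and the study states that TE cells are fragile and are lost more than others when blastoids are taken apart. Shares of cells therefore do not describe intact structures.

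TE arises when outer cells of the embryo become polarised under the control of factors such as GATA2, GATA3, TFAP2C, CDX2 and the TEAD family. It pumps fluid into the blastocyst cavity and later splits by position: polar TE lies over the epiblast and gives rise to the proliferating trophoblast, and mural TE surrounds the cavity. NR2F2 and CCKBR are known as marks of polar TE in the human embryo. α-Ketoglutarate is an intermediate of the TCA cycle and a cosubstrate of dioxygenases, among them DNA and histone demethylases.

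The class stood apart from the other cells in markers that the rule did not use. Summed over GATA2, TFAP2A, TFAP2C, CDX2, KRT19, CLDN10, ENPEP, DAB2 and SLC12A3, TE-like cells held 1064 and 1823 CPM (UMIs per 1000000 of the sum) in run 1, at 0 and 4 mM, and 1177 and 1646 CPM in run 2, against 117 to 124 CPM in Epi-like cells; this is a description, since the genes of a class go together. Marker sums of other lineages were lower than these TE-like sums. Of 10 primitive endoderm markers 9 had a UMI in TE-like cells (FRZB was at 0), and their sum was 179 and 105 CPM in run 1 and 76.6 and 81.9 CPM in run 2, most of it GATA6. It was lower in Epi-like cells, at 22.5 to 27.4 CPM. Of 8 amnion markers 6 had a UMI (GABRP and TNC were at 0), with sums of 96.5, 28.9, 56.9 and 42.6 CPM in the same order, CLDN10 being among them. In Epi-like cells the amnion sums were 45.9 to 48.7 CPM. The sums were 2.14 to 4.11 CPM for 8 extra-embryonic mesoderm markers (POSTN, HAND2, LUM, COL3A1 and TBX20 were at 0), 4.11 to 18.2 CPM for 8 syncytiotrophoblast markers (CGB3, CGB8 and ERVFRD-1 were at 0), and 4.11 to 7.09 CPM for 6 extravillous trophoblast markers, none of them at 0.

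**Figure D1:**
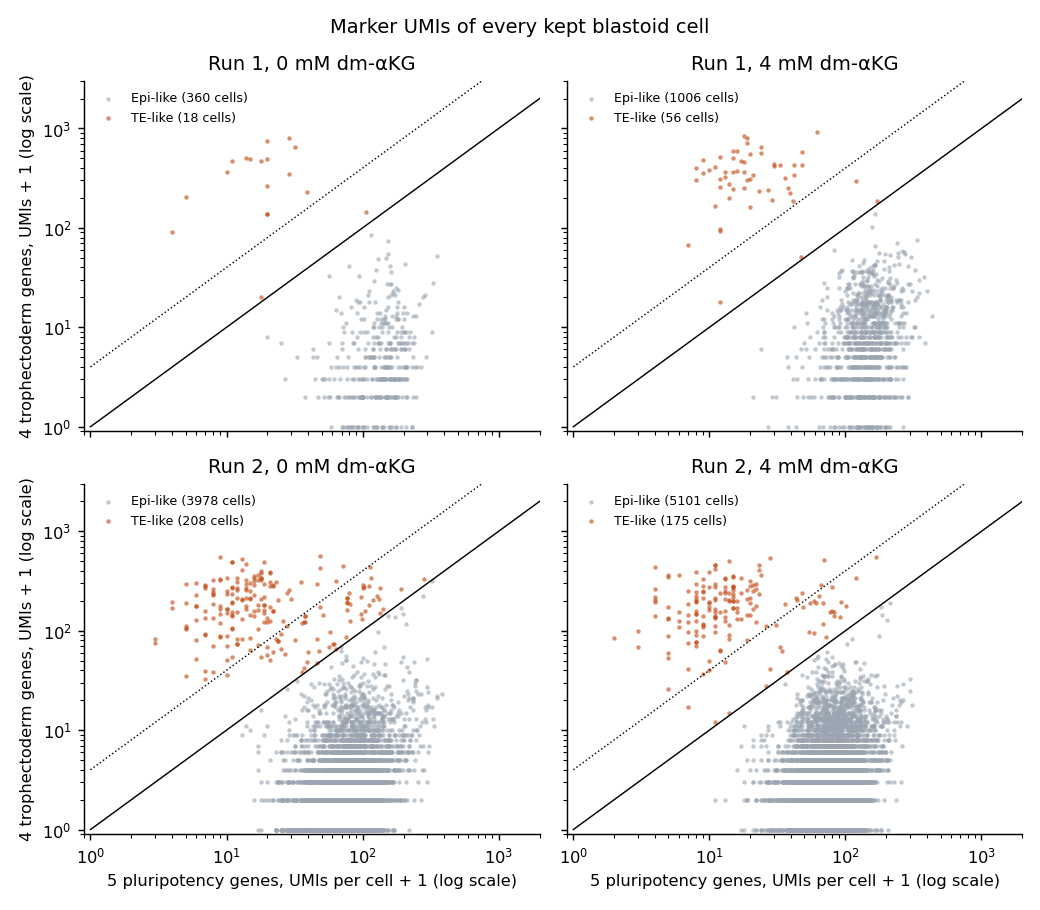
UMIs per cell of the 5 pluripotency genes (horizontal) and the 4 TE genes (vertical) of the rule, each plus 1 on a log scale, for every kept blastoid cell, 1 panel per arm. The solid line is the rule and the dotted line a 4-fold excess of TE UMIs; 60 and 29 of the TE-like cells of run 2 at 0 and 4 mM lie between them.

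The arms differed much in size. Run 1 held 18 TE-like cells at 0 mM and 56 at 4 mM, and run 2 held 208 and 175. Their summed UMIs were 486929, 1869052, 3812990 and 3101676 in that order, so the run 1 arm at 0 mM is the shallowest by far and 3 counts in it amount to 6.16 CPM. TE-like cells were 4.76% (95% Clopper-Pearson interval 2.85 to 7.42%) and 5.27% (4.01 to 6.79%) of the cells kept in run 1, at 0 and 4 mM, and 4.97% (4.33 to 5.67%) and 3.32% (2.85 to 3.84%) in run 2. The order of the doses thus turned between the runs, though with Leiden clusters in place of the rule the shares in run 1 were level (5.291 and 5.27%); the intervals cover counting error only, and the share was not tested. Of tagged barcodes, 48.0 and 77.7% were kept in run 1 and 76.7 and 85.4% in run 2. The median TE-like cell had 25724.5, 32758, 16486 and 16487 UMIs and a mitochondrial share of 6.104, 3.82, 3.81 and 4.02%.

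Some TE-like cells also held many pluripotency transcripts, and in run 2 a larger share did so at 0 mM. Between the rule and a 4-fold excess of TE UMIs lay 2 of 18 and 4 of 56 cells in run 1 (11.1 and 7.14%) and 60 of 208 and 29 of 175 cells in run 2 (28.8 and 16.6%). Cells with 50 or more pluripotency UMIs numbered 1, 3, 36 and 21 (5.56, 5.36, 17.3 and 12.0% of TE-like cells), so by this mark the doses were level in run 1. In run 2 the cells below the 4-fold excess had a median of 22022.5 and 24794 UMIs at 0 and 4 mM, and those above it 15764.5 and 16000.5. At the edge of the rule, 10 cells were inside and 8 outside by 5 UMIs or fewer. Droplets with cells of 2 hashtags were removed by the hashtag share, droplets with 2 cells of the same hashtag could not be, and their part in the results was not tested. The runs share 28 barcodes, none of them TE-like in both.

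After 4 mM dm-αKG, 84 genes rose and 74 fell in TE-like cells, out of 9383 tested (1.68% called, 0.895% higher and 0.789% lower). These include 2 genes of the rule, GATA3 among the rises and POU5F1 among the falls, whose tests carry no weight since their UMIs chose the cells; 83 and 73 genes remain without them. Of the 158, 50 rose and 39 fell by 2-fold or more, and all 158 had the same sign in both runs, which calling genes from both runs favours. The test was edgeR's quasi-likelihood F test on UMIs summed per arm, with the run in the model and Benjamini-Hochberg adjustment over all genes; changes are fitted log2 values, 4 mM minus 0 mM, with their SE. The median change of all genes tested was -0.0054. It and the shares of 0.895% higher and 0.789% lower are the values to set beside each list of genes below. Changes were larger in run 1, where the median absolute log2 ratio of the called genes was 1.37, against 0.91 in run 2.

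These counts rest on the run 1 arm at 4 mM and on the tool. Without that arm no gene passed, with 282 at an unadjusted p below 0.05 against 998 with all arms. DESeq2's Wald test on the same sums called 12 genes higher and 7 lower. Of the genes named here, 8 passed in each of the other 15 alternatives, the Wald test included: H19, FABP7, PTN, LINC01356, TINAGL1, KRT19 and TMSB4X rose and CITED4 fell.

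Among genes with a mean of 20 CPM or more, the 2 largest rises were those of an imprinted RNA and a lipid carrier. H19, a noncoding RNA expressed from the maternal allele, stood at 67.8 and 469.8 CPM (run 1) and 74.5 and 311 CPM (run 2) at 0 and 4 mM (log2 change 2.29 ± 0.16, edgeR adjusted p = 3.6e-09). FABP7, a fatty acid-binding protein, went from 123 to 987 CPM (run 1) and 198 to 736 CPM (run 2) (2.29 ± 0.17, adjusted p = 4.9e-09). For both genes each 4 mM arm was above each 0 mM arm.

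The largest fall among these was that of ALPG, the germ cell alkaline phosphatase and a mark of naive cells, from 550.4 to 103 CPM (run 1) and 485 to 198 CPM (run 2) (-1.78 ± 0.18, adjusted p = 1.5e-06). PLLP, a membrane protein of the plasmolipin family, fell from 34.9 to 3.21 CPM (run 1) and 32.8 to 15.2 CPM (run 2) (-1.58 ± 0.34, adjusted p = 0.0139), with 6 UMIs left at 4 mM in run 1. Neither gene's doses overlapped.

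The 250 bases before the RefSeq start of each of these 4 genes are shown because, at a mean of 20 CPM or more, the genes moved most in either direction among those with an entry on the chromosomes used. They are RefSeq promoter windows on GRCh38.p14, read on the gene's strand; the RefSeq start of H19 lies inside the longer GENCODE span of the gene. Capitals mark matches, on either strand, to AGATAA (for GATA factors), GCCNNNGGC (for TFAP2 factors), GGAATG (for TEAD factors), AGGTCA (the half-site of nuclear receptors) or TGANTCA (for AP-1), none of which overlap here.
H19, chr11:2001267-2001516, minus strand: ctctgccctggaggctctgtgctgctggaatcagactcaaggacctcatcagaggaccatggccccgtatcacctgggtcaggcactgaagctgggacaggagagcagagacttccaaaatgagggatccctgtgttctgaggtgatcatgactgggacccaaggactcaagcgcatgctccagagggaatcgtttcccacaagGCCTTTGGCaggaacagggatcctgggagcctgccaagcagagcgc
FABP7, chr6:122779466-122779715, plus strand: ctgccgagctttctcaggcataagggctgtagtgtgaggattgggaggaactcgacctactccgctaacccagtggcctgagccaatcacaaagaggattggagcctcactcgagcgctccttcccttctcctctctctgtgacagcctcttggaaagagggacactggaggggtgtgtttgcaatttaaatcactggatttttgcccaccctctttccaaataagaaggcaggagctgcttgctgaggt
ALPG, chr2:232406594-232406843, plus strand: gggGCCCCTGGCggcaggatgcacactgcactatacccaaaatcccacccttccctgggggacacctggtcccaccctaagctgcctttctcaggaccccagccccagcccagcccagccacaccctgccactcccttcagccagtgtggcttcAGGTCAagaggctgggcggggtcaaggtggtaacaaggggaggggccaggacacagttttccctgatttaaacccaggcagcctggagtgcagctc
PLLP, chr16:57284673-57284922, minus strand: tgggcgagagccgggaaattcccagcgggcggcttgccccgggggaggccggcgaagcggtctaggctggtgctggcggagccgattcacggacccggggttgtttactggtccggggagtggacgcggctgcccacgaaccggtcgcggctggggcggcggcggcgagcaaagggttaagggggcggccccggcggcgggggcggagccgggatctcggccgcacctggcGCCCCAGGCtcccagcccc

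The FABP7 window held none of these words, H19 and PLLP held a TFAP2 word each, and ALPG held a TFAP2 word and a nuclear receptor half-site. Windows were found for 65 of the 84 genes that rose and 54 of the 74 that fell. The GATA word was in 6 of 65 windows of genes that rose (9.23%) and 2 of 54 of genes that fell (3.70%), against 4.30% of 7484 windows of genes tested and 9.37% of all 27305. The TFAP2 word was in 24.6% of the former and 35.2% of the latter, against 27.6% of genes tested and 19.7% of all windows. Shares for the TEAD word were 10.8, 9.26, 9.19 and 11.9% in the same order, for the half-site 7.69, 14.8, 8.11 and 12.1%, and for the AP-1 word 3.08, 9.26, 3.39 and 6.60%. The median GC content was 63.6 and 67.4% for genes that rose and fell, 65.2% for genes tested and 58.0% for all windows. These are descriptions of letters, with no test.

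**Figure D2:**
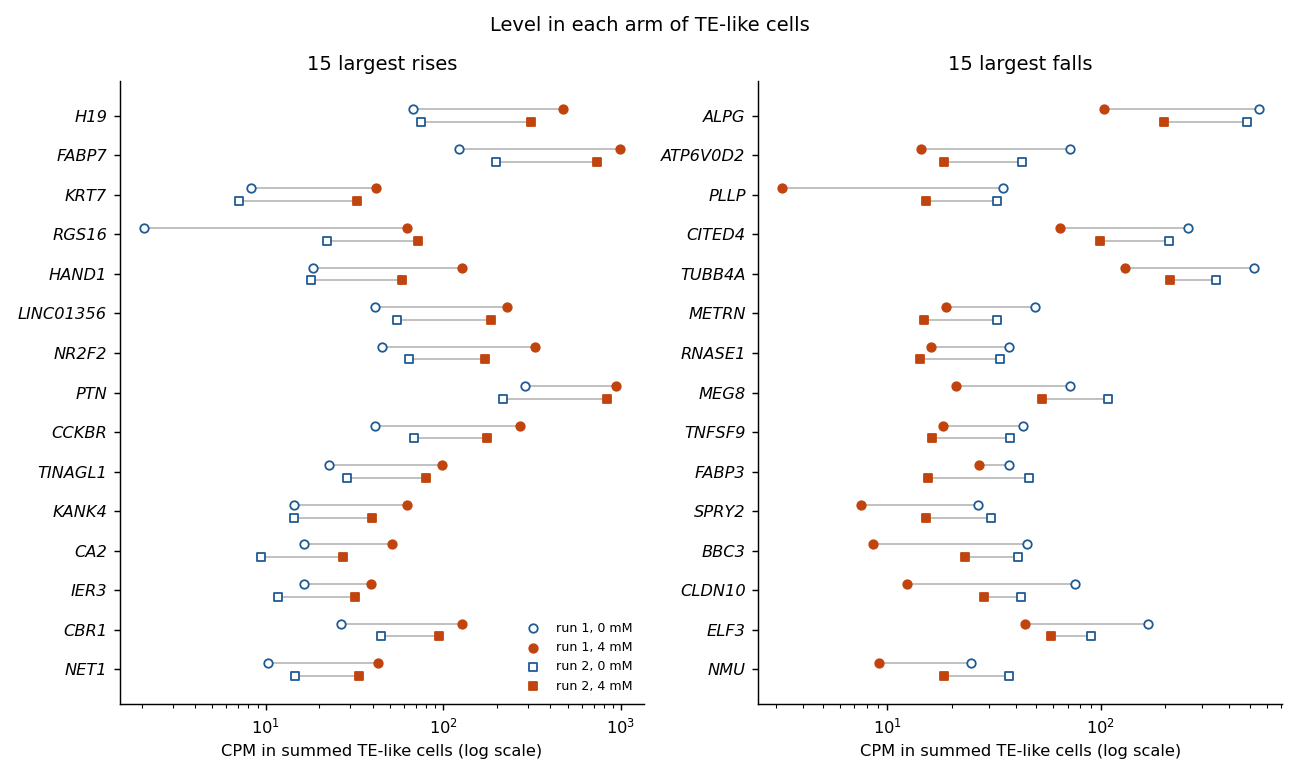
CPM (horizontal, log scale) in the summed TE-like cells of each arm for the 15 largest rises and the 15 largest falls with a mean of 20 CPM or more; circles are run 1, squares run 2, open 0 mM and filled 4 mM. Every filled symbol lies to the right of its open partner among the rises and to the left among the falls, with the longest lines in run 1 for RGS16 and PLLP.

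A few regulators of later trophoblast rose. NR2F2, an orphan nuclear receptor, went from 45.2 to 326 CPM (run 1) and 63.99 to 172 CPM (run 2) (1.85 ± 0.20, adjusted p = 5.8e-06). HAND1, a bHLH factor of trophoblast differentiation, stood at 18.5 and 127 CPM (run 1) and 18.1 and 58.7 CPM (run 2) at 0 and 4 mM (1.97 ± 0.22), and the homeobox gene MSX2 at 47.2 and 128 CPM (run 1) and 38.3 and 61.9 CPM (run 2) (0.93 ± 0.19, adjusted p = 0.00897). The 4 mM arms were above both 0 mM arms for each of the 3. Of 12 measured factors of trophoblast differentiation these 3 rose, none fell and 9 did not pass, beside 0.895% of all genes called higher. The list's median was 0.29. TP63, a factor of proliferating trophoblast, was at 8.21 and 18.7 CPM (run 1) and 11.02 and 10.3 CPM (run 2) (0.21 ± 0.35, adjusted p = 0.912).

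Some of the factors that set up TE moved. Of 18 measured beside GATA3, 4 rose, 1 fell and 13 did not pass, where 0.895 and 0.789% of all genes tested rose and fell, with a median of 0.19. PPARG, a nuclear receptor that placental development needs, had 0 and 48 UMIs in run 1 and went from 6.82 to 23.2 CPM in run 2 (2.06 ± 0.39, adjusted p = 0.00446). The TEAD cofactor VGLL1 went from 24.6 to 59.4 CPM (run 1) and 18.1 to 38.7 CPM (run 2) (1.14 ± 0.22), GRHL1, a grainyhead factor of epithelia, from 20.5 to 63.7 CPM (run 1) and 21.8 to 35.1 CPM (run 2) (0.93 ± 0.23), and ARID3A from 73.9 to 200.1 CPM (run 1) and 95.5 to 146 CPM (run 2) (0.89 ± 0.17, adjusted p = 0.00573). ELF3, an epithelial ETS factor, fell from 166 to 44.4 CPM (run 1) and 90.2 to 58.7 CPM (run 2) (-1.12 ± 0.21, adjusted p = 0.00522).

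GATA2, TFAP2C and CDX2 did not pass. GATA2 stood at 138 and 225 CPM (run 1) and 131 and 158 CPM (run 2) at 0 and 4 mM (0.44 ± 0.15, adjusted p = 0.208), TFAP2C at 144 and 97.4 CPM (run 1) and 109.6 and 97.7 CPM (run 2) (-0.33 ± 0.16, adjusted p = 0.489) and CDX2 at 39.02 and 35.3 CPM (run 1) and 25.96 and 19.7 CPM (run 2) (-0.32 ± 0.24, adjusted p = 0.712). GATA2 was higher at 4 mM and CDX2 lower in both runs, in each case by less than the test could separate from the spread. TEAD1 (0.17 ± 0.16) and TEAD4 (-0.31 ± 0.19), the DNA-binding partners of YAP, and KLF5 (-0.24 ± 0.15) did not pass either. GATA3, which helped to choose the cells and is given as a description, was at 103 and 230.1 CPM (run 1) and 114 and 147 CPM (run 2); it is among the genes called higher.

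A few growth factor and receptor genes passed. PTN, a heparin-binding growth factor, went from 288 to 936 CPM (run 1) and 218 to 835 CPM (run 2) (1.83 ± 0.12, adjusted p = 3.5e-09), and its relative MDK was at 335 and 275 CPM (run 1) and 460.3 and 388 CPM (run 2) (-0.27 ± 0.12, adjusted p = 0.418). CCKBR, a G protein-coupled receptor for gastrin and cholecystokinin, rose from 41.1 to 270.2 CPM (run 1) and 67.9 to 176 CPM (run 2) (1.76 ± 0.20, adjusted p = 8.3e-06). RGS16, which shortens signals of such receptors, rose from 1 to 116 UMIs in run 1 and 22.03 to 72.2 CPM in run 2 (1.98 ± 0.26, adjusted p = 7.0e-05). FGFR1, a receptor for fibroblast growth factors, rose by 0.97 ± 0.24 and the neuregulin receptor gene ERBB3 fell by 1.29 ± 0.33. Of 18 measured receptors and G protein brakes 3 rose, 1 fell and 14 did not pass, and of 18 growth factors and ligands PTN rose, EFNA1 fell (-0.64 ± 0.16) and 16 did not pass.

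Outputs of FGF and ERK signalling passed in both directions. SPRY2, a feedback inhibitor of receptor tyrosine kinases, stood at 26.7 and 7.49 CPM (run 1) and 30.7 and 15.2 CPM (run 2) at 0 and 4 mM (-1.21 ± 0.29, adjusted p = 0.0293); with the 4-fold excess of TE UMIs it changed by -1.08 and did not pass (edgeR adjusted p = 0.121). DUSP6, an ERK phosphatase, stood at 65.7 and 54.04 CPM (run 1) and 42.7 and 14.2 CPM (run 2) (-1.02 ± 0.24, adjusted p = 0.0279), its level at 4 mM in run 1 was above that at 0 mM in run 2, and its change was 0.13 without the run 2 arm at 4 mM. The immediate early gene IER3 rose from 16.4 to 39.1 CPM (run 1) and 11.8 to 31.9 CPM (run 2) (1.38 ± 0.26), and the cyclin gene CCND1 from 57.5 to 225 CPM (run 1) and 134 to 201 CPM (run 2) (0.996 ± 0.20, adjusted p = 0.00633). Of 12 measured FGF and ERK outputs 2 rose, 2 fell and 8 did not pass, with a median of -0.09.

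Genes of the epithelial surface and the cell skeleton moved in both directions. KRT7, a keratin of trophoblast, rose from 8.21 to 41.7 CPM (run 1) and 7.08 to 32.6 CPM (run 2) (2.22 ± 0.29, adjusted p = 7.4e-05), and KRT19 from 456 to 1193 CPM (run 1) and 687 to 1131 CPM (run 2) (1.01 ± 0.13, adjusted p = 4.8e-05); KRT8 and KRT18 belong to the rule and were at 3760.3 and 3226 CPM (run 1) and 3135 and 3353 CPM (run 2) and at 9233 and 7276 CPM (run 1) and 7166 and 7132 CPM (run 2). TMSB4X, which binds monomeric actin, rose from 495 to 1535 CPM (run 1) and 585 to 1142 CPM (run 2) (1.26 ± 0.13, adjusted p = 2.1e-06). KANK4 (1.60 ± 0.24), the tropomyosin gene TPM1 (0.72 ± 0.13) and the guanine nucleotide exchange factor gene NET1 (1.36 ± 0.26) rose too, as did the small GTPase gene CDC42 (0.51 ± 0.13). EZR, which ties actin to the apical membrane, fell from 1017 to 712 CPM (run 1) and 1184 to 819 CPM (run 2) (-0.53 ± 0.11), and the tubulin gene TUBB4A from 522 to 129 CPM (run 1) and 347 to 212 CPM (run 2) (-1.28 ± 0.19, adjusted p = 3.6e-04).

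Of junction genes, 2 passed. NECTIN1, an adhesion molecule of adherens junctions, had 1 and 68 UMIs in run 1 and went from 9.704 to 26.4 CPM in run 2 (1.76 ± 0.33, adjusted p = 0.00459). CLDN10, a claudin that forms ion pores, fell from 75.99 to 12.3 CPM (run 1) and 42.2 to 28.4 CPM (run 2) (-1.18 ± 0.30, adjusted p = 0.0384). None of the other 18 of 19 measured genes of adherens junctions and desmosomes and 15 of 16 of tight junctions passed, CDH1 (-0.18 ± 0.16), CLDN6 (0.02 ± 0.16) and CLDN7 (0.03 ± 0.17) among them. TINAGL1, a basement membrane protein, rose from 22.6 to 98.4 CPM (run 1) and 28.8 to 80.3 CPM (run 2) (1.62 ± 0.20, adjusted p = 2.7e-05), and the matrix protein gene SPARC fell from 117 to 46.5 CPM (run 1) and 89.96 to 62.5 CPM (run 2) (-0.81 ± 0.19).

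Among transport genes a pump subunit and a water channel fell and a carbonic anhydrase rose. ATP6V0D2, part of the vacuolar proton pump, fell from 71.9 to 14.4 CPM (run 1) and 42.7 to 18.4 CPM (run 2) (-1.59 ± 0.25, adjusted p = 7.5e-04); the other 19 of 20 measured subunits did not pass, and the list's median was -0.11. AQP3, a water and glycerol channel, fell from 94.5 to 48.7 CPM (run 1) and 92.3 to 49.3 CPM (run 2) (-0.93 ± 0.17, adjusted p = 0.00431), while CA2, a cytosolic carbonic anhydrase, rose from 16.4 to 51.4 CPM (run 1) and 9.44 to 27.1 CPM (run 2) (1.55 ± 0.27, adjusted p = 0.00226). The other 15 of 17 measured genes of ion and water transport did not pass, with the sodium pump gene ATP1B1 at -0.73 ± 0.22. Of 24 endocytic receptor genes, LRP2 (megalin, 0.75 ± 0.18) and the cathepsin gene CTSV (0.72 ± 0.14) rose, and the transferrin receptor gene TFRC fell (-0.61 ± 0.14).

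Enzymes of placental steroid synthesis were among the rises. HSD3B1, which makes progesterone from pregnenolone, had 0 and 96 UMIs in run 1, at 0 and 4 mM, and 8 and 64 in run 2 (3.71 ± 0.44, adjusted p = 2.0e-05). HSD17B1, which makes oestradiol from oestrone, went from 341 to 660.2 CPM (run 1) and 223 to 457 CPM (run 2) (0.99 ± 0.12, adjusted p = 2.7e-05). CYP11A1, the enzyme before HSD3B1, stood at 24.6 and 30.5 CPM (run 1) and 15.998 and 24.2 CPM (run 2) (0.51 ± 0.26, adjusted p = 0.527). Of 13 measured genes of steroid synthesis these 2 rose and 11 did not pass. HSD3B1 met the filter on low counts through its 4 mM arms alone, so its place among the 2 carries no weight.

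Single genes of lipid, prostaglandin and amino acid metabolism passed. PLIN2, which coats lipid droplets, rose by 0.80 ± 0.17 and FADS2, a fatty acid desaturase, by 1.32 ± 0.31 (from 4.11 to 29.96 CPM (run 1) and 12.1 to 25.1 CPM (run 2)), while FABP3 fell from 36.97 to 26.8 CPM (run 1) and 46.2 to 15.5 CPM (run 2) (-1.21 ± 0.25). FABP5, an epidermal relative, was at 3039.5 and 4318 CPM (run 1) and 4080.0 and 3893 CPM (run 2) and did not pass (0.20 ± 0.11). CBR1, which reduces prostaglandins and other carbonyls, rose from 26.7 to 127 CPM (run 1) and 44.3 to 94.8 CPM (run 2) (1.38 ± 0.20, adjusted p = 3.0e-04). The glutamine transporter gene SLC38A1 rose from 86.3 to 169 CPM (run 1) and 99.7 to 149 CPM (run 2) (0.71 ± 0.16), whereas the transaminase genes GPT2 (-0.87 ± 0.20) and OAT (-0.81 ± 0.17) fell.

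Central metabolism passed in few genes. None of 33 measured genes of the TCA cycle and pyruvate entry passed (median -0.05), of 28 genes of hypoxia and glycolysis LDHA rose (0.52 ± 0.11), and of 21 ATF4 targets and serine genes PHGDH rose (0.65 ± 0.15). HMOX1, haem oxygenase, and FTL, ferritin light chain, rose by 0.67 ± 0.16 and 0.36 ± 0.089. The DNA methyltransferase cofactor gene DNMT3L fell (-0.67 ± 0.17), and the other 27 of 28 measured genes of DNA methylation and demethylases did not pass, with TET1 at -0.50 ± 0.15 (adjusted p = 0.103). None of 22 histone acetylation enzymes, 10 metallothioneins, 13 mitochondrially encoded genes, 32 S phase genes, 32 genes of G2 and M phase or 19 matrix proteases and inhibitors passed. By an unadjusted p below 0.05 of edgeR there were 5 genes of the TCA list and 2, 2, 6, 3, 6 and 4 of these lists in the same order, and DESeq2 called none in any of them. Of all 9383 genes tested, 998 had such a p. Among these lists the share was highest for the mitochondrially encoded genes, 6 of 13. Their median log2 ratio was -0.49 in run 1 and 0.05 in run 2.

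A few imprinted RNAs passed. Of 8 measured imprinted genes of 11p15, 2 rose, 1 fell and 5 did not pass, and of 7 of 14q32 and 15q11, 2 fell and 5 did not pass. On 11p15, CDKN1C, a cell cycle inhibitor expressed from the maternal allele like H19, rose from 6.16 to 97.9 CPM (run 1) and 78.4 to 144 CPM (run 2) (1.28 ± 0.25, adjusted p = 0.00677), and PHLDA2, a brake on placental growth, fell from 158 to 81.9 CPM (run 1) and 159.7 to 118 CPM (run 2) (-0.64 ± 0.16). The run 1 arm at 0 mM held 3 UMIs of CDKN1C. IGF2, the paternally expressed neighbour of H19, had at most 0.26 CPM in any arm. On 14q32, MEG3 fell from 101 to 51.4 CPM (run 1) and 372 to 184 CPM (run 2) (-1.005 ± 0.15, adjusted p = 3.4e-04) and MEG8 from 71.9 to 20.9 CPM (run 1) and 109 to 53.2 CPM (run 2) (-1.23 ± 0.19, adjusted p = 7.5e-04). MEG3 differed more between the runs than between the doses, and without the run 2 arm at 0 mM its change was 0.25. Alleles cannot be told apart in these counts.

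Other noncoding RNAs passed as well. LINC01356 rose from 41.1 to 229 CPM (run 1) and 54.8 to 186 CPM (run 2) (1.96 ± 0.17, adjusted p = 2.5e-07) and MIR205HG, the host of miR-205, by 0.77 ± 0.19. NEAT1, the paraspeckle RNA, fell from 1643 to 740.5 CPM (run 1) and 1036 to 821 CPM (run 2) (-0.74 ± 0.14). The maternally expressed NLRP2 rose from 466 to 898 CPM (run 1) and 537 to 812 CPM (run 2) (0.74 ± 0.12, adjusted p = 7.5e-04).

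The genes of naive pluripotency that passed all fell. Of 25 measured outside the rule, none rose, 5 fell and 20 did not pass, with a median of -0.33. Of all genes tested, 0.789% were called lower. Beside ALPG the 5 are KHDC1L (-0.76 ± 0.11, from 762 to 450.5 CPM (run 1) and 1173 to 699.9 CPM (run 2)), PRAP1 (-1.04 ± 0.19), UTF1 (-0.97 ± 0.22) and DNMT3L. They are not all genes of the Epi-like class. DNMT3L stood at 144 and 136 CPM in TE-like cells at 0 mM in run 1 and run 2, above its 79.9 to 101.6 CPM in Epi-like cells. ALPG is also named by the study as a mural marker. UTF1 was level in run 1, at 18.5 and 17.7 CPM, and went in run 2 from 86.3 to 38.7 CPM; without the run 2 arm at 0 mM its change was 0.65. Epi-like markers outside the rule (NANOG, SOX2, KLF17, SUSD2, ARGFX, FGF4 and PRDM14), all 7 of them with a UMI, moved with these falls: in TE-like cells they summed to 47.2 and 35.3 CPM in run 1 and 117 and 84.8 CPM in run 2, against 518 to 690.2 CPM in Epi-like cells. Of the core factors, NANOG was at 8.21 and 10.7 CPM (run 1) and 27.3 and 24.8 CPM (run 2) (-0.07 ± 0.27) and SOX2 at 4.11 and 4.28 CPM (run 1) and 22.8 and 15.5 CPM (run 2) (-0.50 ± 0.32), and none of 8 outside the rule passed.

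The 5 pluripotency genes of the rule are given as a description. POU5F1 was at 261 and 116 CPM (run 1) and 362 and 205 CPM (run 2) at 0 and 4 mM, DPPA5 at 156 and 158 CPM (run 1) and 632 and 354 CPM (run 2), DPPA4 at 65.7 and 60.99 CPM (run 1) and 118 and 103 CPM (run 2), L1TD1 at 331 and 403 CPM (run 1) and 462 and 448 CPM (run 2) and TDGF1 at 32.9 and 19.8 CPM (run 1) and 65.8 and 47.1 CPM (run 2). CLDN4, of the TE side, was at 364 and 295 CPM (run 1) and 259 and 262 CPM (run 2). Where only cells with a 4-fold excess of TE UMIs were used, an alternative added after the data had been seen, 87 genes rose and 120 fell of 8643 tested. In those cells ALPG changed by -2.16, PRAP1 by -1.21, MEG3 by -1.19 and KHDC1L by -0.79, each past the threshold, and UTF1 by -0.28 (edgeR adjusted p = 0.885). Of the 88 named genes, 80 passed in those cells; beside UTF1 and SPRY2, the others that did not were PMAIP1, LRP2, CDC42, IFITM3, FTL and SLC38A1.

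HLA-C, an HLA class I gene, fell. It stood at 14.4 and 5.35 CPM (run 1) and 28.6 and 11.9 CPM (run 2) at 0 and 4 mM (-1.29 ± 0.31, adjusted p = 0.0297). The class I genes share reads with their close relatives, so the split between them is uncertain, and at 4 mM in run 1 it rests on 10 UMIs. With the 4-fold excess of TE UMIs it changed by -1.74. TNFSF9, the ligand of 4-1BB, fell from 43.1 to 18.2 CPM (run 1) and 37.5 to 16.1 CPM (run 2) (-1.23 ± 0.24), and the interferon-induced IFITM3 rose (0.46 ± 0.11). HLA-B (-0.67 ± 0.32), HLA-E (0.08 ± 0.24) and B2M (-0.41 ± 0.36) did not pass.

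Pro-apoptotic targets of p53 were among the falls. BBC3 and PMAIP1, which promote apoptosis, fell from 45.2 to 8.56 CPM (run 1) and 41.2 to 23.2 CPM (run 2) (-1.21 ± 0.28, adjusted p = 0.0227) and from 59.6 to 20.9 CPM (run 1) and 47.2 to 26.1 CPM (run 2) (-1.06 ± 0.22, adjusted p = 0.0105). PMAIP1 changed by -0.70 with the 4-fold excess of TE UMIs and did not pass there (edgeR adjusted p = 0.3401). In Epi-like cells PMAIP1 stood at 92.4 to 129.9 CPM, BBC3 at 66.3 to 73.1 CPM and SPRY2 at 69.1 to 85.5 CPM, above their levels in TE-like cells. The other 17 of 19 measured p53 targets did not pass, among them CDKN1A at 75.99 and 18.7 CPM (run 1) and 12.9 and 20.6 CPM (run 2) (-0.46 ± 0.39) and MDM2 (-0.39 ± 0.15), and the list's median was -0.42. Of 14 immediate early genes IER3 rose, JUND fell (-0.76 ± 0.14) and 12 did not pass, FOS being at 67.8 and 48.2 CPM (run 1) and 23.1 and 30.95 CPM (run 2) (0.06 ± 0.23). The median mitochondrial share of the cells was lower at 4 mM in run 1 and slightly higher in run 2, as given above, and its part in these falls was not tested.

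Other large falls were those of CITED4, METRN, RNASE1, NMU and HES4. CITED4, a CBP/p300 coactivator, went from 257 to 64.2 CPM (run 1) and 209 to 99.3 CPM (run 2) (-1.45 ± 0.18, adjusted p = 2.7e-05). METRN, a secreted neurotrophic protein, went from 49.3 to 18.7 CPM (run 1) and 32.8 to 14.8 CPM (run 2) (-1.24 ± 0.25), RNASE1, a secreted ribonuclease, from 36.97 to 16.1 CPM (run 1) and 33.6 to 14.2 CPM (run 2) (-1.23 ± 0.26), and NMU, a neuropeptide, from 24.6 to 9.095 CPM (run 1) and 37.2 to 18.4 CPM (run 2) (-1.11 ± 0.26). HES4, a bHLH repressor downstream of Notch, fell by 1.11 ± 0.21. In none of these 5 did an arm at 4 mM reach an arm at 0 mM.

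Several polar TE markers rose. Of the study's 25 polar genes, which it took from embryo data, 20 passed the filter on low counts; 9 rose, none fell and 11 did not pass, beside 0.895% of all genes called higher. FYB1 met the filter through its 4 mM arms alone, and LGALS3 and CCR7 needed a 4 mM arm to meet it. The place of these genes among the 9 therefore carries no weight. Beside NR2F2, CCKBR, TINAGL1, VGLL1 and SLC38A1 these are TENM3, a teneurin (from 10.3 to 39.6 CPM (run 1) and 17.3 to 36.8 CPM (run 2); 1.24 ± 0.25), LGALS3, galectin 3 (1 and 46 UMIs in run 1 and 34 and 70 in run 2; 1.59 ± 0.35), the adaptor gene FYB1 (1, 31, 5 and 31 UMIs in that order; 2.90 ± 0.53) and the chemokine receptor gene CCR7 (0, 45, 20 and 39 UMIs; 1.71 ± 0.44). DESeq2's Wald test called 1 of the 20, TINAGL1 (adjusted p = 0.00837). By that test NR2F2 and CCKBR did not pass (DESeq2 Wald adjusted p = 0.177 and 0.170). The polar list had a median change of 0.98 (2.401 and 0.65 in the separate runs), against -0.0054 over all genes tested. PGF, placental growth factor, went from 4.11 to 58.9 CPM (run 1) and 42.7 to 56.4 CPM (run 2) and did not pass (0.83 ± 0.28, adjusted p = 0.193), nor did SP6 (1.31 ± 0.37) or CBLB (0.85 ± 0.24).

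Most measured mural markers had a negative change, and few passed. Of the study's 25 mural genes 23 passed the filter. LRP2 rose, FABP3, GPRC5A, S100A13 and FUOM fell, and 18 did not pass, beside 0.789% of all genes called lower. GPRC5A, an orphan receptor, went from 154 to 50.8 CPM (run 1) and 109.6 to 70.9 CPM (run 2) (-0.997 ± 0.19, adjusted p = 0.00559). Their median change was -0.36 (-0.25 and -0.34 in the separate runs), and 18 of the 23 were negative. DESeq2's Wald test called none of the 23 mural genes. Both lists are described by their counts and medians, with no test of the list. Outside these lists the study names PTN as a polar marker that rose in these TE-like cells. It names ALPG, CITED4 and TUBB4A as mural markers that fell there. The directions were the same here, as given above, from the same data.

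**Figure D3:**
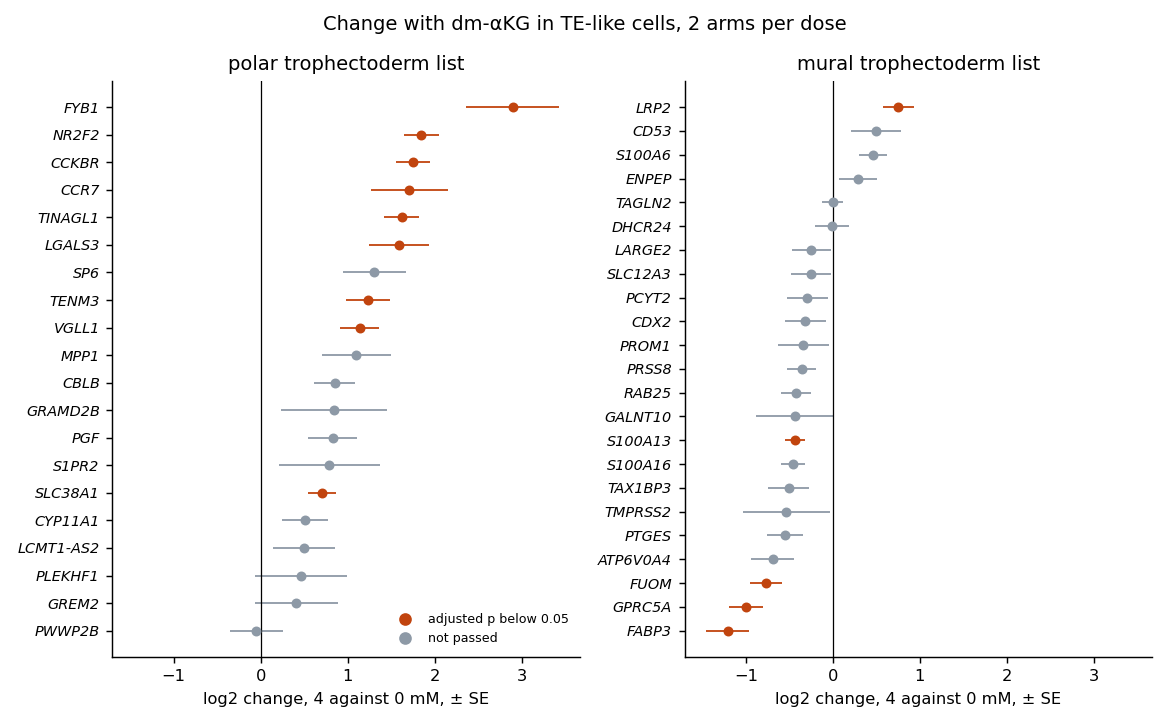
Fitted log2 change (horizontal, 4 against 0 mM, ± SE, n = 2 arms per dose) of the 20 measured polar and the 23 measured mural markers in TE-like cells; red marks an adjusted p below 0.05. Of the polar markers 19 lie above 0 and 9 are red, and of the mural markers 5 lie above 0 and 1 of these, LRP2, is red.

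Single TE-like cells held more polar transcripts at 4 mM when set to equal depth. With each cell thinned to 5000 UMIs, the median TE-like cell of run 1 had 1 and 6.5 UMIs of the 25 polar genes at 0 and 4 mM, that of run 2 had 1 and 4, and the median Epi-like cell had 0 in every arm. The middle 50% of cells spanned 0 to 2.75 and 4 to 10.25 polar UMIs in run 1, which do not overlap, and 0 to 3 and 2 to 7 in run 2, which do. Mural UMIs were 12.5 and 12 in run 1 and 13 and 12 in run 2 in the median TE-like cell, and 3 in the median Epi-like cell. Cells with more polar than mural UMIs were 0 of 18 and 12 of 56 (21.4%) in run 1 and 6 of 208 (2.88%) and 32 of 175 (18.3%) in run 2. Most TE-like cells at 4 mM thus still held more mural than polar transcripts of these lists.

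The share of TE-like cells with a UMI of a gene showed how the rises were spread over cells, again at 5000 UMIs per cell. NR2F2 was found in 16.7% (exact 95% interval 3.58 to 41.4%) and 66.1% (52.2 to 78.2%) of TE-like cells of run 1, at 0 and 4 mM, and in 21.2% (15.8 to 27.3%) and 46.9% (39.3 to 54.5%) in run 2, against at most 0.51% of Epi-like cells in any arm. CCKBR was found in 11.1 and 71.4% in run 1 and 23.1 and 53.1% in run 2, against at most 0.25% of Epi-like cells. For PTN these shares were 33.3, 80.4, 37.98 and 69.7%, and for HAND1 5.56, 32.1, 7.69 and 21.7%, with at most 1.1 and 0.15% of Epi-like cells. The intervals of the doses stood apart in both runs for NR2F2, CCKBR and PTN.

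FABP7 had a UMI in 27.8% (9.69 to 53.5%) and 69.6% (55.9 to 81.2%) of TE-like cells in run 1 and in 36.5 and 59.4% in run 2. In cells that had it, the mean was 2.2 and 7.15 UMIs (run 1) and 3.22 and 6.17 UMIs (run 2) at 0 and 4 mM, so both the share of cells and the level in them were higher. H19 was found in 11.1 and 17.3% of TE-like cells at 0 mM, about the share in Epi-like cells (14.1 to 16.2%), and in 58.9 and 47.4% at 4 mM. HSD3B1 was found in 0 of 18 and 12 of 56 cells in run 1, where the exact 95% interval of a count of 0 reaches 18.5%, and in 1 of 208 and 15 of 175 cells in run 2, against at most 0.0196% of Epi-like cells.

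ALPG, CITED4 and MEG3 were found in smaller shares of cells at 4 mM. ALPG was found in 66.7% (40.99 to 86.7%) and 26.8% (15.8 to 40.3%) of TE-like cells of run 1, at 0 and 4 mM, and in 71.6% (64.99 to 77.7%) and 33.7% (26.8 to 41.2%) in run 2, while Epi-like cells had it in 69.4 to 85.7%. CITED4 was found in 77.8 and 28.6% in run 1 and 61.1 and 37.1% in run 2, against 6.27 to 9.28% of Epi-like cells. MEG3 was found in 44.4 and 14.3% and in 57.7 and 30.3%, below its share of 93.04% or more in Epi-like cells. Intervals and limits here hold counting error only. Without thinning these shares were higher, except for HSD3B1 at 0 mM in run 1, which stayed at 0. NR2F2, for example, was then found in 55.6, 91.1, 38.0 and 75.4% of TE-like cells and ALPG in 94.4, 60.7, 90.9 and 61.1%.

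**Figure D4:**
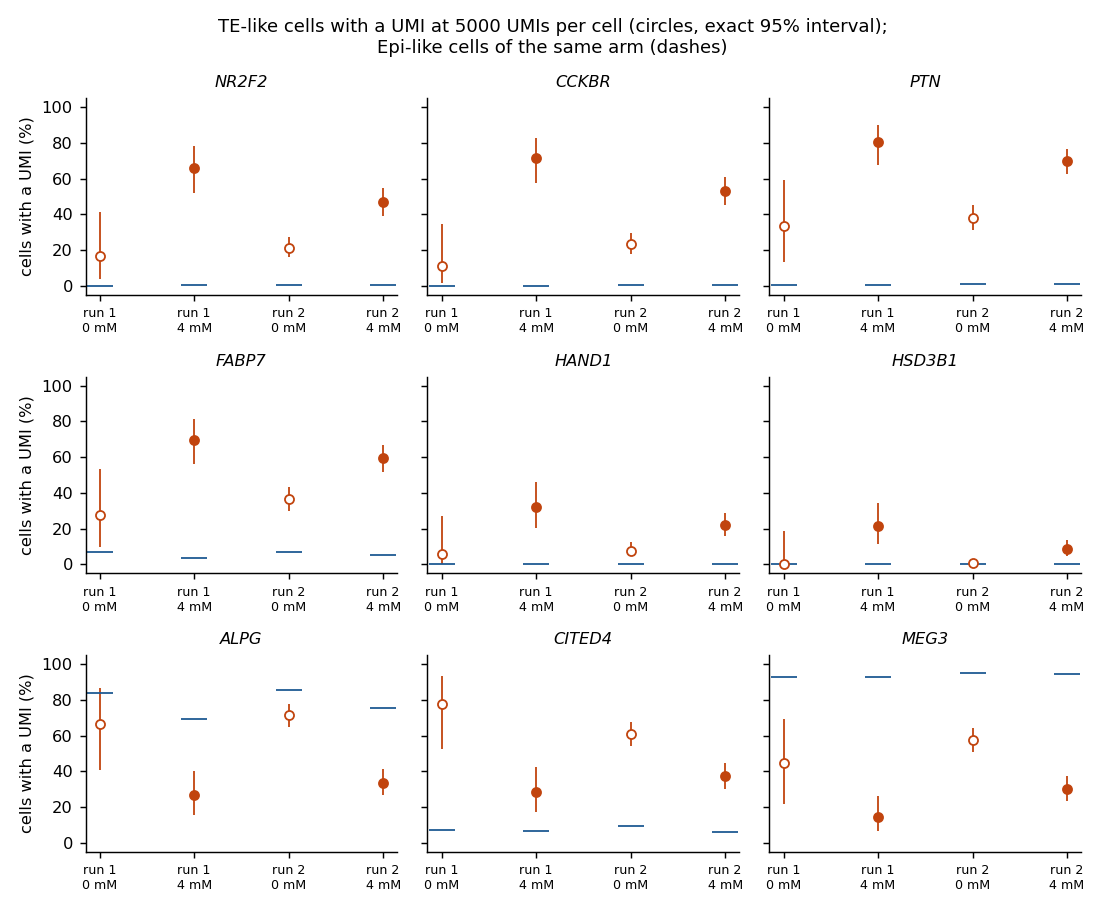
Share of cells with a UMI (vertical, percent) of 9 genes in the 4 arms at 5000 UMIs per cell; circles with exact 95% intervals are TE-like cells (open 0 mM, filled 4 mM) and dashes are Epi-like cells of the same arm. NR2F2, CCKBR and PTN are near 0 in Epi-like cells and higher at 4 mM in TE-like cells of both runs.

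For 54 of the 88 named genes the change differed from that in Epi-like cells of the same arms. The 88 were named because their TE-like change passed, and the same TE-like sums enter this comparison. The choice of genes thus favours a high count, and 54 of 88 carries no weight of its own. Epi-like cells changed with dose as well. In their sums, over 10445 cells against 457, the same test by dose called 2212 of 17094 genes (12.9%). A fit over both classes asked of each gene whether its change with dose differed between them; of 13114 genes tested, 68 had a higher and 77 a lower change in TE-like cells (1.11% called, 0.519% higher and 0.587% lower). FABP7 rose in TE-like cells and was lower at 4 mM in Epi-like cells (-0.71 ± 0.092), a difference of 3.04 on the log2 scale (edgeR adjusted p = 1.6e-80). H19 differed by 2.35 (adjusted p = 1.2e-44; Epi-like change -0.02 ± 0.066), LINC01356 by 1.83 (adjusted p = 2.9e-23; 0.19 ± 0.056) and CBR1 by 1.72 (adjusted p = 2.8e-11; -0.30 ± 0.094). CCND1 rose in TE-like cells and was lower at 4 mM in Epi-like cells (-0.52 ± 0.055), differing by 1.51 (adjusted p = 4.1e-19).

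Of genes scarce in Epi-like cells, NR2F2 (1.05, adjusted p = 0.112), HAND1 (1.28, adjusted p = 0.521) and CCKBR (1.04, adjusted p = 0.2403) did not pass, and their Epi-like levels were at most 0.81, 0.39 and 0.65 CPM. Some falls were common to both classes: NEAT1 changed by -0.74 ± 0.14 in TE-like and -0.67 ± 0.052 in Epi-like cells, CITED4 by -1.45 ± 0.18 and -0.84 ± 0.083, and JUND by -0.76 ± 0.14 and -0.47 ± 0.053, and for none of the 3 did the difference pass (adjusted p = 1, 0.134 and 0.771). ALPG fell in both, by more in TE-like cells (-0.91, adjusted p = 3.6e-08; Epi-like -0.83 ± 0.051). PMAIP1 and OAT fell in TE-like cells and their change differed from that of Epi-like cells (-1.34, adjusted p = 2.3e-07, and -0.90, adjusted p = 2.8e-06), their Epi-like changes being 0.35 ± 0.056 and 0.15 ± 0.053. The classes come from the same arms and are not independent cultures.

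**Figure D5:**
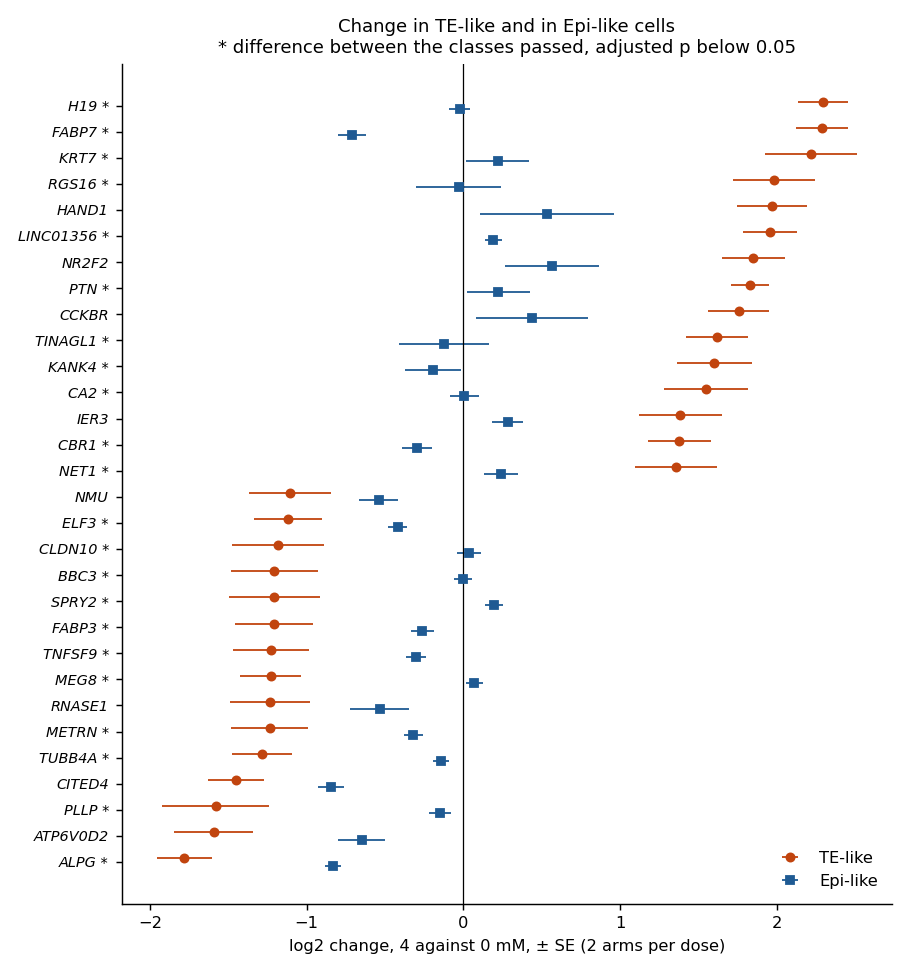
Fitted log2 change (horizontal, 4 against 0 mM, ± SE, n = 2 arms per dose) of the 15 largest rises and 15 largest falls in TE-like cells (red circles) and of the same genes in Epi-like cells (blue squares). An asterisk marks genes whose change differed between the classes; Epi-like cells lie nearer to 0 for each gene, and FABP7 lies at -0.71 there.

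The genes named first lie across the genome (GRCh38, GENCODE 44). H19 (ENSG00000130600) spans 1995166 to 2004552 of chromosome 11 and CDKN1C (ENSG00000129757) 2883213 to 2885775 of the same chromosome, both on the minus strand. FABP7 (ENSG00000164434) spans 122779716 to 122784074 of chromosome 6, NR2F2 (ENSG00000185551) 96325938 to 96340263 of chromosome 15 and HSD3B1 (ENSG00000203857) 119507198 to 119515054 of chromosome 1. MEG3 (ENSG00000214548) and MEG8 (ENSG00000225746) are neighbours at 100779410 to 100861031 and 100894770 to 101038859 of chromosome 14. ALPG (ENSG00000163286) spans 232406844 to 232410714 of chromosome 2 and PLLP (ENSG00000102934) 57248547 to 57284672 of chromosome 16.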

How the data were processed

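The authors deposited UMI counts of each gene and hashtag in every barcode, from bcl2fastq 2.20.0.422 and Cell Ranger 6.1.2 with GRCh38, and used Seurat 4.3.0. The 2 libraries hold 9431 and 15133 barcodes, 36601 genes and 144122560 and 200278140 UMIs. The hashtag of each culture was read from the deposited hashtag tables. No column of another series was present.

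Barcodes were kept with 1 hashtag at 80% or more of hashtag UMIs, a mitochondrial share of 15% or less and at least 7000 UMIs in run 1 or 5000 UMIs in run 2. No doublet caller was run. Sums of UMIs over the cells of an arm and class entered edgeR 4.0.16 (R 4.3.3; quasi-likelihood F test, TMM, filterByExpr, run in the model, 1 residual degree of freedom, Benjamini-Hochberg at 0.05). The common dispersion was 0.00882 and the prior degrees of freedom 21.6; for the fit of both classes the prior was infinite, so every gene took the same spread. The filter was set by dose and asked for enough counts in 2 arms, so a gene could pass through the arms of a single dose. FYB1 and HSD3B1 met it at 4 mM alone. RGS16, PPARG, NECTIN1, LGALS3 and CCR7 had at most 1 UMI in run 1 at 0 mM and needed a 4 mM arm to pass. The SE is the fitted change over the root of F. CPM are UMIs per 1000000 of the sum, and within-run ratios add 0.5 CPM. On simulated counts with 200 changed genes, the fit by dose found 56 of 97 genes at a log2 of 1 and 89 of 95 at 2, with 6 false calls, and the fit of both classes 35 of 98 and 67 of 97, with 3. These counts had the same dispersion for all genes and no difference between runs. The numbers of false calls therefore do not carry over to the real arms.

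Each run holds 1 arm of each dose, so the run pairs the arms, as the hashtag tables give it; the block is in the model. The labels name 2 runs and the study 2 independent experiments. The p-values rest on a spread between arms that was mostly pooled over genes, and wholly so in the fit of both classes. They do not measure the spread of a single gene. Named genes are the 15 largest rises and falls at a mean of 20 CPM or more with 1 sign in both runs, and up to 4 passing members of each of 55 gene lists, with known members beside them; ARID3A, TENM3 and LGALS3 were added to complete a count after their values were seen. The cells, lists and tests were chosen with earlier results of these data known, and the polar and mural lists are the study's. Alternatives were DESeq2 1.42.0 and its size factors, no filter, no run term, each arm left out, other class, hashtag, mitochondrial and UMI limits, Leiden clusters (scanpy 1.11.5) and thinning to 5000 UMIs. Gene positions are from GENCODE and promoter windows from RefSeq tables. Aggregates were not compared here, and a few genes are not reported here.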

Additional observations from a re-analysis of the deposited data

Results flagged for a closer look

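For the genes below, the change with dm-αKG differed between TE-like and Epi-like cells of the same arms (edgeR quasi-likelihood test of the class by dose term, Benjamini-Hochberg adjusted p below 0.05, 13114 genes, 2 arms per dose). Values are the TE-like minus the Epi-like log2 change. In Epi-like cells KRT7, RGS16, PTN, TINAGL1, KANK4, XAGE2 and HSD17B1 stood below 3 CPM in every arm, so their differences are taken against a low level. SPRY2, PMAIP1, UTF1 and FTL fell short of the threshold for the TE-like change itself in cells with a 4-fold excess of TE UMIs. Groups of 2 arms are too small to test a single arm against the others.

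Of lipid, matrix and signalling genes that rose in TE-like cells, the difference was 3.04 for FABP7, 1.71 for PTN, 2.19 for RGS16, 1.72 for TINAGL1, 1.77 for LGALS3, 1.05 for TENM3, 1.43 for FADS2 and 0.86 for PLIN2. For keratin, adhesion and cell skeleton genes it was 2.04 for KRT7, 1.32 for KRT19, 1.52 for NECTIN1, 1.20 for TMSB4X, 1.84 for KANK4, 1.17 for NET1 and 0.67 for TPM1. Imprinted and noncoding RNAs gave 2.35 for H19, 1.83 for LINC01356, 1.42 for CDKN1C, 1.36 for MIR205HG and 0.85 for NLRP2. For enzymes and iron genes it was 1.72 for CBR1, 1.60 for CA2, 1.01 for HSD17B1, 0.79 for CTSV, 0.86 for HMOX1 and 0.63 for FTL. Regulators, cycle and other trophoblast genes gave 1.18 for GRHL1, 1.15 for ARID3A, 1.51 for CCND1, 2.09 for XAGE2 and 0.76 for S100P.

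Among genes that fell in TE-like cells, the difference was -0.91 for ALPG, -1.40 for PLLP, -1.22 for GPRC5A, -1.27 for ERBB3, -0.71 for TFRC and -1.21 for CLDN10 for genes of the cell surface. It was -1.33 for SPRY2, -1.18 for BBC3, -1.34 for PMAIP1, -0.63 for ELF3, -0.87 for METRN and -0.89 for TNFSF9 for signalling, apoptosis and factor genes. For the cell skeleton, matrix and metabolism it was -1.08 for TUBB4A, -0.54 for EZR, -0.64 for SPARC, -0.90 for FABP3, -0.91 for GPT2 and -0.90 for OAT. For noncoding RNAs it was -1.27 for MEG8 and -0.86 for MEG3. For naive genes and an HLA gene it was -0.84 for PRAP1, -0.88 for UTF1 and -1.08 for HLA-C. Epi-like cells held these genes at higher levels than TE-like cells in every arm. The same was true of ALPG, SPRY2, BBC3, PMAIP1, TNFSF9, METRN, SPARC and OAT. The share of TE-like cells near the edge of the rule was higher at 0 mM in both runs, in run 1 by 2 of 18 against 4 of 56 cells. Its part in these values was not tested.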

How the results depend on the processing

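In TE-like cells 84 genes rose and 74 fell, and these counts moved with most choices. They were 12 and 7 with DESeq2's Wald test, 49 and 37 with its size factors in edgeR, 18 and 6 with no replicate block, 37 and 39 with a class at 2 times the pluripotency UMIs, 27 and 17 at a mitochondrial share of at most 10%, 43 and 31 at 7000 UMIs in both runs and 12 and 10 with cells thinned to 5000 UMIs, where 5409 genes were tested. The genes that fell were 47 with Leiden clusters, 133 with at least 50 hashtag UMIs and 120 in cells at 4 times the pluripotency UMIs, which was added after the data had been seen. With each arm left out in turn, 0 to 57 genes rose and 0 to 51 fell, the 0 being without the run 1 arm at 4 mM; the run term is dropped there and the lone arm is assumed to vary like the other dose. The cause of these moves was not tested. The 145 genes whose change differed between the classes became 20 with DESeq2, 19 with thinned cells and 25 to 217 with an arm left out, and 162 with no replicate block.

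Of the 88 named genes, 85 kept their sign in every alternative that gave a value. With each arm left out in turn, MEG3 ranged from -2.34 to 0.25 and UTF1 from -1.89 to 0.65, the highest without the run 2 arm at 0 mM, and DUSP6 from -1.79 to 0.13, the highest without the run 2 arm at 4 mM. Without the run term 20 of the 88 named genes passed. The polar median kept its sign throughout, from 0.81 to 1.94, and the mural median too, from -0.51 to -0.20. The share of TE-like cells in run 2 was 3.54 and 2.77% at 0 and 4 mM for cells at 4 times the pluripotency UMIs, and 3.96% at 4 mM with a hashtag share of 90% or more. Depth limits the run 1 arm at 0 mM most, where 18 cells hold 486929 UMIs.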

Other observations

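Among 2115 kept cells of 40 h aggregates, 3 met the rule for TE-like cells. At 0 and 4 mM in run 1 and run 2, ABCG2, an efflux transporter of the trophoblast surface, stood at 96.5 and 173 CPM (run 1) and 95.5 and 149.6 CPM (run 2) in TE-like cells and rose (0.71 ± 0.15; edgeR adjusted p = 0.0141, 2 arms per dose). XAGE2, a cancer-testis gene of the placenta, went from 45.2 to 52.4 CPM (run 1) and 19.1 to 54.2 CPM (run 2) (1.10 ± 0.25). Of 15 measured S100 and annexin genes, S100A11 (0.55 ± 0.10) and S100P (0.80 ± 0.16) rose and S100A13 fell (-0.44 ± 0.11); S100P at 4 mM in run 2 was below its level at 0 mM in run 1. The chaperone gene HSPA8 rose (0.60 ± 0.12), and 13 of 14 measured heat shock genes did not pass. Of 158 genes called, 36 had a mean under 20 CPM, and 1 has a clone name only.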
